A study of Rattus norvegicus with 6 samples.

Results

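S100a8, S100a9 and Lcn2 are 3 genes whose products are known as alarmins and antimicrobial proteins of inflamed skin, and their read counts were followed through 6 libraries of rat back skin. They were picked by Ensembl identifier (ENSRNOG00000011557 for S100a8, ENSRNOG00000011483 for S100a9 and ENSRNOG00000013973 for Lcn2) and make up 3 of the 33692 features in the tables. All 3 passed the filter on low counts, as did 15497 features in all. The series compared skin of vehicle-treated rats (3 libraries) with skin of rats treated with afatinib (3 libraries), an irreversible inhibitor of the ErbB receptor tyrosine kinases, a class of drugs that often causes a rash. The strain, sex and age of the rats, the dose and the length of treatment are not stated in the labels, which name no other treatment in either group. The labels do not say that the 3 libraries of a group came from separate animals. Every p-value below therefore judges a difference against the spread between these libraries, which may be partly technical.

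S100a8 and S100a9 are small calcium-binding proteins of the S100 family that pair to form calprotectin. Calprotectin is stored in large amounts in neutrophils, is made by keratinocytes of stressed or inflamed epidermis, starves microbes of zinc and manganese, and when released acts on Toll-like receptor 4 and the receptor RAGE. Lcn2 (lipocalin 2, also called NGAL) is a secreted lipocalin that binds bacterial siderophores and so keeps iron from bacteria, and it too comes from neutrophils and from epithelia. Interleukin 17, interleukin 1 and related cytokines are known to raise all 3 in keratinocytes, with NF-kappaB, C/EBP and STAT3 factors among the regulators. In whole skin a higher level can mean more cells of a type or more RNA per cell, and these cannot be told apart here.

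The upstream sequences of S100a9 and Lcn2 are shown because the reference held sequences for these genes and none for S100a8. Whether these sequences bear on the read counts was not tested. Each is the 250 bases before the start site, written 5′ to 3′ on the gene's strand, from RefSeq on assembly GRCr8. Of the 3 genes, 2 had a sequence in that reference. Capitals mark matches, on either strand, to GGGNNNNNCC (a core of the NF-kappaB motif), TTNNGCAA or TGNNGCAA (forms of the C/EBP motif), TTCNNNGAA (STAT), TGANTCA (AP-1) and TATAAA (the TATA box).
S100a9, chr2:178490623-178490872, minus strand: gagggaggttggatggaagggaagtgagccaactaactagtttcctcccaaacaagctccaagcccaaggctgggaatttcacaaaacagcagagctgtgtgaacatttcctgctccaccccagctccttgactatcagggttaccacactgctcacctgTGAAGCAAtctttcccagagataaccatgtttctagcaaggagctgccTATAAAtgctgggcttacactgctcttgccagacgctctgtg
Lcn2, chr3:36081781-36082030, minus strand: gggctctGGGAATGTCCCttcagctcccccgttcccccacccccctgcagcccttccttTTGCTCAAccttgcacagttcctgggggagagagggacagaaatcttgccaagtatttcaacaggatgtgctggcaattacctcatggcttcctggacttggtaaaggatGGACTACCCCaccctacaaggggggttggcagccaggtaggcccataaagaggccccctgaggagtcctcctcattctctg

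The S100a9 window held TGAAGCAA, beginning 90 bases before the start site, and a TATA box beginning 42 bases before it. The Lcn2 window held 3 matches to GGGNNNNNCC, of which a pair overlapped by all but 1 base at its far end (GGGAATGTCC on the gene's strand, beginning 243 bases before the start site, and its neighbour on the other strand), while the third, GGACTACCCC, began 81 bases before the start site. It also held TTGCTCAA, a match on the other strand to TTNNGCAA, 191 bases before the start site. These letters are not rare. Of 27457 upstream windows of the same length, 43.5% held GGGNNNNNCC, 9.20% TTNNGCAA, 9.30% TGNNGCAA and 13.1% TATAAA. TTCNNNGAA (7.52% of windows) and TGANTCA (6.36%) were in neither window. A match is a string of letters and not evidence of binding. In the same reference S100a8 and S100a9 are neighbours on chromosome 2 with 0 genes listed between them, and Lcn2 lies on chromosome 3.

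The libraries held 15304166 to 18494281 counts. A floor of 3 counts stood for 0.162 to 0.196 CPM (counts per 1000000 counts of the library), and each of the 3 genes was above that floor in every library. One library in each group stood apart from the others of that group. On the first principal component over all tested features (60.2% of the variance), the scores were 89.1 for afatinib replicate 1 and 55.4 for replicate 2, but -17.7 for replicate 3, inside the range of the vehicle libraries (-86.6 to -12.5). Vehicle replicate 2, at -86.6, lay far from vehicle replicates 1 and 3 (-27.8 and -12.5). The group comparisons below are also given without afatinib replicate 3, which lay among the other group. Fits without each of the other libraries, vehicle replicate 2 included, are given as well. Lists of markers for skin, neutrophils and other cell types could not be matched to the identifiers in the tables, so neither the tissue label nor the cells behind these reads could be checked.

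S100a9 had a low level in vehicle-treated skin and a much higher one in every afatinib library. Its level was 2.97, 2.17 and 2.58 CPM in vehicle replicates 1, 2 and 3 (55, 38 and 45 reads). In afatinib replicates 1, 2 and 3 it was 2819, 1219 and 43.3 CPM (43149, 19804 and 729 reads). The groups did not overlap: even the lowest afatinib library was 14.6 times the highest vehicle library. Against the vehicle mean of 2.58 ± 0.400 CPM (SD, n = 3), the 3 afatinib libraries were 1094, 473 and 16.8 times higher. The afatinib mean was 1361 ± 1393 CPM (SD, n = 3), an SD as large as the mean, because replicate 1 alone held 67.8% of all S100a9 reads of the group.

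S100a8, the partner of S100a9 in calprotectin, followed the same order of libraries from a higher starting level. It stood at 9.68, 5.95 and 10.5 CPM in vehicle replicates 1, 2 and 3 (179, 104 and 183 reads). After afatinib it stood at 2151, 933 and 37.1 CPM in replicates 1, 2 and 3 (32917, 15147 and 624 reads). Again the groups did not overlap, although the margin was narrower than for S100a9, with the lowest afatinib library 3.53 times the highest vehicle library. Relative to the vehicle mean of 8.71 ± 2.42 CPM (SD, n = 3), the afatinib libraries were 247, 107 and 4.25 times higher, with a group mean of 1040 ± 1061 CPM (SD, n = 3).

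Lcn2, the siderophore-binding lipocalin, did not separate the groups. Vehicle replicates 1, 2 and 3 held 5.57, 3.32 and 3.56 CPM (103, 58 and 62 reads). Afatinib replicates 1, 2 and 3 held 46.8, 7.82 and 1.66 CPM (716, 127 and 28 reads). Afatinib replicate 1 was 11.3 times the vehicle mean of 4.15 ± 1.24 CPM (SD, n = 3), replicate 2 was 1.88 times it, and replicate 3 was 0.401 times it and so below every vehicle library. The afatinib mean of 18.8 ± 24.5 CPM (SD, n = 3) rested on replicate 1, which held 82.2% of the group's Lcn2 reads.

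**Figure D1:**
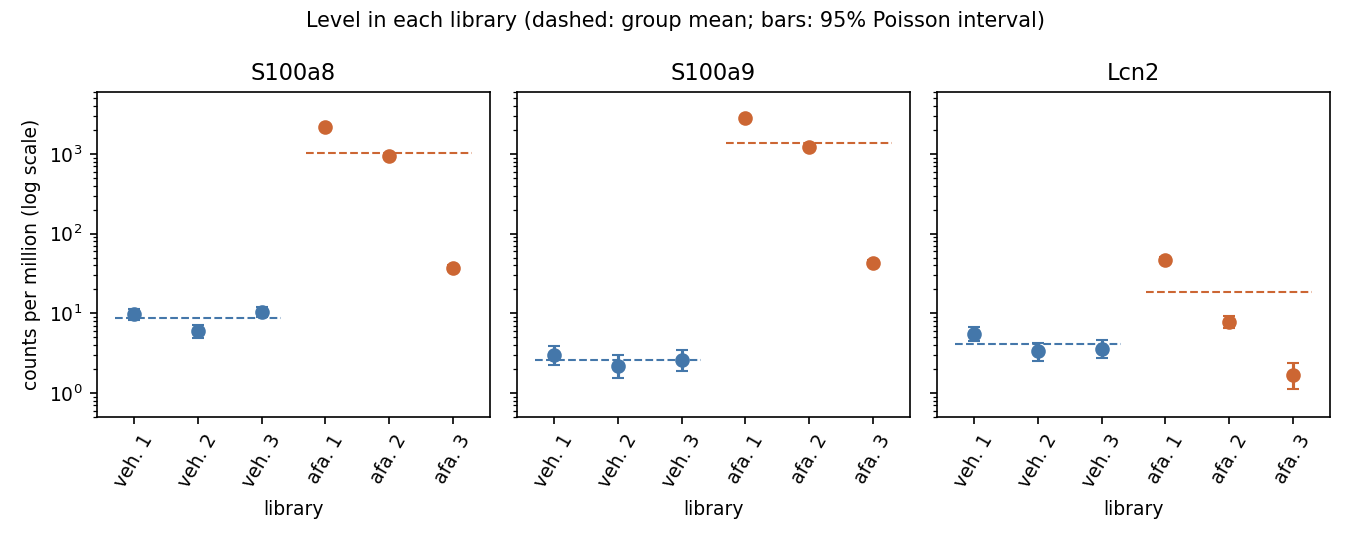
CPM (log axis) of S100a8, S100a9 and Lcn2 in the 3 vehicle (veh.) and 3 afatinib (afa.) libraries. Points are libraries, bars 95% Poisson intervals for counting error only, and dashed lines group means. For S100a8 and S100a9 every afatinib library lies above every vehicle library, with replicate 3 far below replicates 1 and 2, whereas Lcn2 in afatinib replicate 3 lies below the vehicle libraries.

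Counted together, S100a8 and S100a9 took up a far larger part of the afatinib than of the vehicle libraries. Their joint share of all reads was 0.00127%, 0.000813% and 0.00131% in vehicle replicates 1, 2 and 3. In afatinib replicate 1 it was 0.497% (95% Wilson interval 0.494% to 0.501%), in replicate 2 it was 0.215% (0.213% to 0.217%) and in replicate 3 it was 0.00803% (0.00762% to 0.00847%). These intervals, like all others here, cover counting error only.

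The fit across all features asked whether these differences exceeded the spread between libraries. With all 6 libraries, edgeR's quasi-likelihood test called 0 of the 3 genes at a Benjamini-Hochberg adjusted p under 0.05. It called 0 of the 15497 features (0%) in either direction. At an unadjusted p under 0.05 it placed 3023 features, and limma voom called 0 and DESeq2 1032 at an adjusted p under 0.05. The fitted difference of S100a9 was 8.83 on the log2 scale (adjusted p = 0.189 in edgeR), and that of S100a8 was 6.70 (adjusted p = 0.189 in edgeR). For Lcn2 it was 1.97 (adjusted p = 0.327 in edgeR). S100a8 and S100a9, 2 of the 3, had an unadjusted p under 0.05 with a higher level after afatinib, where 10.3% of all tested features did.

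DESeq2, run on the same counts, called S100a9 (log2 fold change 8.85, SE 1.23, adjusted p = 1.42e-09) and S100a8 (log2 fold change 6.71, SE 1.21, adjusted p = 1.02e-05). It did not call Lcn2 (1.99, SE 0.90, adjusted p = 0.162). These are 2 of the 3 genes, against 3.9% of the features given an adjusted p that DESeq2 called as higher. Limma voom estimated 7.50 (SE 1.88) for S100a9, 5.45 (SE 1.44) for S100a8 and 0.99 (SE 1.18) for Lcn2, with adjusted p-values of 0.220, 0.220 and 0.637. The 3 tools gave the same sign for each gene. In edgeR the biological coefficient of variation was 86.9% for S100a9, 85.7% for S100a8 and 81.7% for Lcn2, against 33.1% in common over all features.

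Without overlap between groups, 2 of the 3 genes (S100a8 and S100a9) stood higher in every afatinib library, and 12.9% of tested features did the same. A two-sided exact permutation test on log2 CPM, 3 libraries against 3, gave p = 0.1 for S100a8 and for S100a9, which is the least that 3 against 3 can give, and p = 0.6 for Lcn2. Adjusted by Benjamini-Hochberg over the 3 genes, these exact permutation p-values were 0.15, 0.15 and 0.6. Without afatinib replicate 3 the same exact permutation test, now 2 against 3, gave p = 0.2 for each of the 3 genes, the smallest it can then give.

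In size, S100a9 was close to the top of the whole table. Its fitted difference ranked 4 among the 15497 tested features, that of S100a8 ranked 24 and that of Lcn2 ranked 296, while the median size over all features was 0.32 on the log2 scale. A difference above 6 on that scale was fitted for 29 features. Of these 29, 20 had a vehicle mean under 1 CPM. Among the 14502 features with a vehicle mean of at least 1 CPM, a limit chosen after the values were seen, S100a9 ranked 1 (the next feature stood at 7.42), S100a8 ranked 6 and Lcn2 ranked 200. Without afatinib replicate 3, S100a9, S100a8 and Lcn2 ranked 8, 37 and 344 among 16014 tested features, and 1, 6 and 164 among the 14614 with that vehicle mean.

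**Figure D2:**
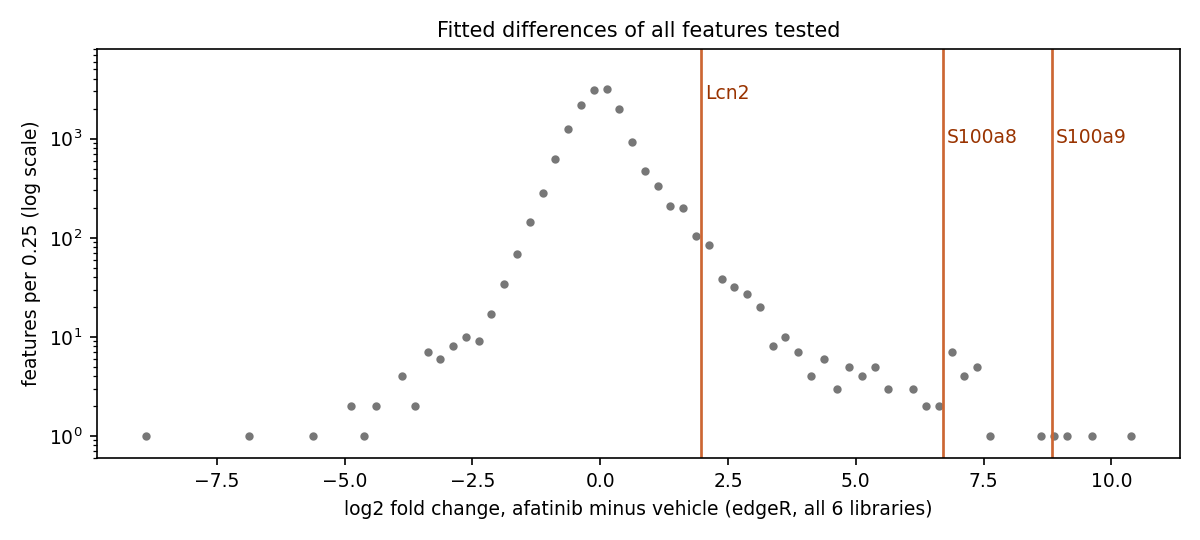
Number of tested features (log axis) in each step of 0.25 of the log2 fold change fitted by edgeR, afatinib minus vehicle, over all 6 libraries; vertical lines mark the 3 genes. S100a9 at 8.83 and S100a8 at 6.70 lie in the sparse upper tail and Lcn2 at 1.97 on the shoulder of the main body.

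The result for S100a8 and S100a9 in edgeR turned on afatinib replicate 3. It was singled out by its place on the first principal component of these same data. Leaving it out also removes the lowest afatinib value of each of the 3 genes. Adjusted p-values without it, from any of the tools, can therefore be too small and only describe how the fit depends on it. Without that library, S100a9 stood at 9.40 on the log2 scale (adjusted p = 0.0121 in edgeR) and S100a8 at 7.26 (adjusted p = 0.0138 in edgeR), so that both passed and rose. Lcn2, at 2.50, did not pass (adjusted p = 0.107 in edgeR). These were 2 of the 3 genes, against 5.18% of all features tested in that fit that were called as higher. DESeq2 without the same library called all 3 genes as higher, Lcn2 with 2.52 (adjusted p = 0.00359), where it called 12.9% of features as higher. Limma voom without it called S100a9 (9.27, SE 0.49) and S100a8 (7.16, SE 0.42), each with an adjusted p of 0.0192, and not Lcn2 (1.99, SE 0.96, adjusted p = 0.208), against 4.4% of features called as higher.

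Afatinib replicate 1 decided the value for Lcn2. Without it the fitted difference of Lcn2 was 0.04 on the log2 scale (adjusted p = 0.984 in edgeR), against 1.97 with all libraries. Leaving out the same library moved S100a9 to 7.73 and S100a8 to 5.60, neither of which passed (adjusted p = 0.413 for both in edgeR). Leaving out any vehicle library or afatinib replicate 2 kept S100a9 between 8.75 and 8.94 and S100a8 between 6.51 and 6.82. In DESeq2, S100a8 and S100a9 were called whichever library was left out, with adjusted p-values of at most 0.00235 for S100a8 and 5.27e-06 for S100a9.

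**Figure D3:**
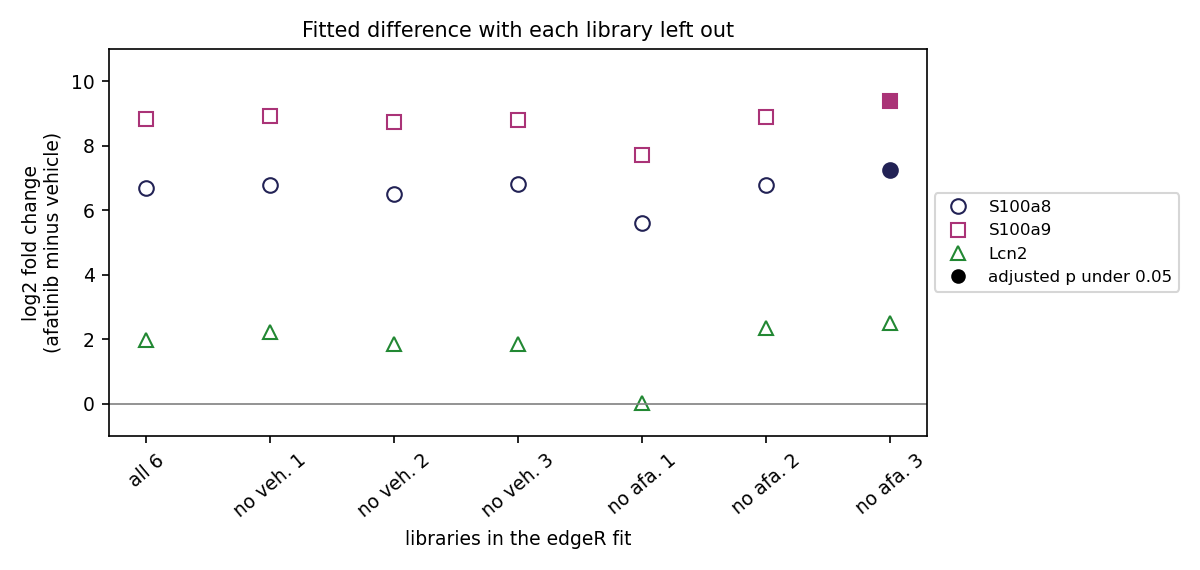
Log2 fold change (afatinib minus vehicle) fitted by edgeR for S100a8, S100a9 and Lcn2 with all 6 libraries and with each library left out in turn. Filled symbols have an adjusted p under 0.05: only S100a8 and S100a9 without afatinib replicate 3. Lcn2 stands at 0.04 without afatinib replicate 1.

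Levels of these genes varied widely among the afatinib libraries. Between the highest and the lowest afatinib library S100a9 differed 65.1-fold, S100a8 58.0-fold and Lcn2 28.1-fold. Between the vehicle libraries the same ratios were 1.37, 1.76 and 1.68. The SD of log2 CPM among afatinib libraries was 3.03 for S100a9, 2.93 for S100a8 and 2.23 for Lcn2, above that of 99.9%, 99.8% and 99.3% of tested features. Among vehicle libraries it was 0.18, 0.37 and 0.38, above that of 41.3%, 71.6% and 73.0% of them. All 3 genes were highest in afatinib replicate 1 and lowest in afatinib replicate 3, an order shared by 30.5% of tested features.

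Afatinib replicate 3, which lay among the vehicle libraries on the first principal component, did not do so for S100a8 and S100a9. Both genes exceeded every vehicle library there, as did 27.1% of tested features, and Lcn2 did not. In afatinib replicates 1 and 2 all 3 genes exceeded every vehicle library, as did 27.8% of tested features. Whether depth, the skin taken or a difference between animals goes with the low values of replicate 3 was not tested. Its total of 16840331 counts was the highest of the 3 afatinib libraries.

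The balance between S100a9 and S100a8 differed between the groups and was nearly constant within afatinib. Of the reads of the 2 genes together, S100a9 made up 23.5% in vehicle replicate 1 (95% exact binomial interval 18.2% to 29.5%), 26.8% in replicate 2 (19.7% to 34.8%) and 19.7% in replicate 3 (14.8% to 25.5%). After afatinib its share was 56.7% in replicate 1 (56.4% to 57.1%), 56.7% in replicate 2 (56.1% to 57.2%) and 53.9% in replicate 3 (51.2% to 56.6%). Afatinib replicate 3 therefore sat with the other afatinib libraries in this measure, with an interval apart from those of all vehicle libraries. Its level of both genes was nevertheless far lower than in afatinib replicates 1 and 2. A share of reads within a library does not depend on how libraries are scaled, and since it is not corrected for gene length it does not say which of the 2 transcripts was the more abundant.

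On the log2 scale the ratio of S100a9 to S100a8 was -1.68 ± 0.28 (SD, n = 3) in vehicle libraries and 0.33 ± 0.10 (SD, n = 3) after afatinib, a difference of 2.02, or 4.05-fold. It restates the larger rise of S100a9 (7.52 in mean log2 CPM) than of S100a8 (5.50) and is not a separate result. How many other pairs of features part the groups in this way was not counted. For the ratio, the two-sided exact permutation test gave p = 0.1, again the smallest value possible. The difference in the ratio was 2.07 without afatinib replicate 3 and lay between 1.87 and 2.15 when any library was left out. Vehicle values rest on 38 to 55 S100a9 reads, and the afatinib values on 729 to 43149.

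**Figure D4:**
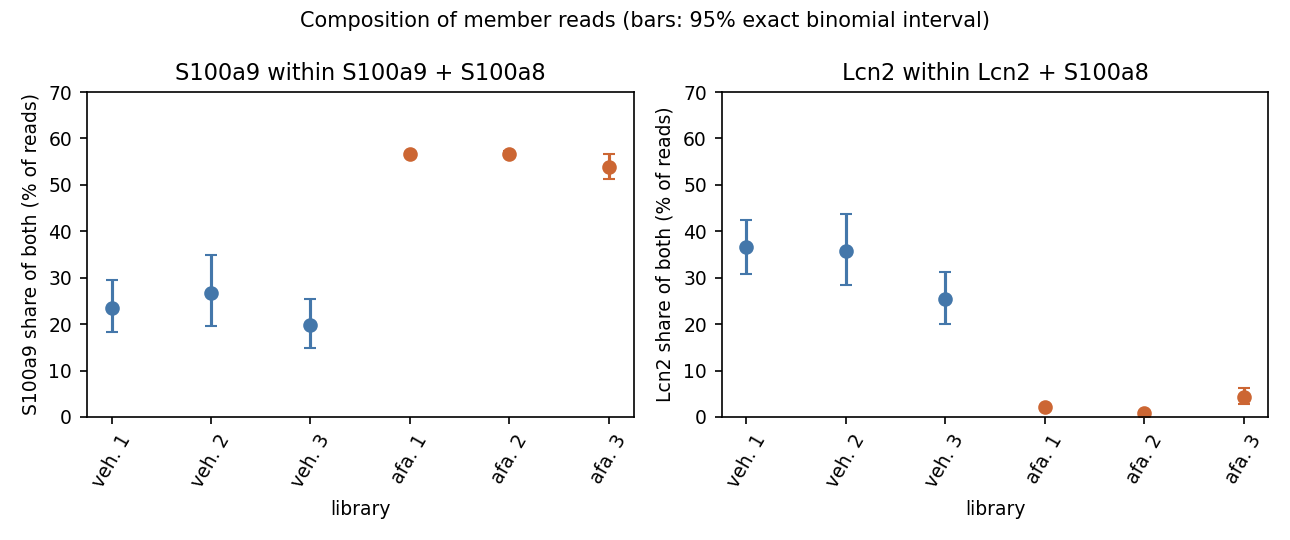
Percent of S100a9 among S100a9 and S100a8 reads (left) and of Lcn2 among Lcn2 and S100a8 reads (right) in each vehicle (veh.) and afatinib (afa.) library, with 95% exact binomial intervals for counting error. The S100a9 share lies between 19.7% and 26.8% in vehicle and between 53.9% and 56.7% in afatinib libraries, and the Lcn2 share between 25.3% and 36.5% and between 0.831% and 4.29%.

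Lcn2 parted from the S100 genes in every afatinib library. Its own level was above every vehicle library in afatinib replicates 1 and 2 and below them in replicate 3. In replicates 1 and 2 the lower ratios to the S100 genes therefore restate the larger rise of S100a8 and S100a9. For each 100 S100a8 reads there were 57.5, 55.8 and 33.9 Lcn2 reads in vehicle replicates 1, 2 and 3, and 2.18, 0.838 and 4.49 in afatinib replicates 1, 2 and 3. The groups did not overlap, and the afatinib values spread over a wider range of ratios than the vehicle values. The log2 ratio of Lcn2 to S100a8 differed by -4.55 between the groups (23.4-fold lower after afatinib) and that of Lcn2 to S100a9 by -6.57 (94.7-fold lower). Both of these ratios were chosen after the values were seen. Each gave p = 0.1 in the two-sided exact permutation test, and adjusted over the 3 ratios, which share genes, the exact permutation p-values of all 3 were 0.1. Without afatinib replicate 3 the differences were -5.15 and -7.22.

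Features whose pattern over the 6 libraries was closest to that of each gene were sought by the root mean square difference of log2 CPM (prior count 2), each centred on its own mean, among 11680 features with a mean of at least 5 CPM. S100a8 was the third nearest to S100a9, at a distance of 1.02, and S100a9 was number 24 from S100a8, where the median distances of all candidates were 4.15 and 3.24. Lcn2 lay farther off, at 2.40 from S100a8 (number 414) and 3.37 from S100a9 (number 443), still nearer than the median candidate. Counted from Lcn2, whose median distance to all candidates was 1.41, the S100 genes were among the farthest (numbers 11586 and 11664). Over the 5 libraries without afatinib replicate 3, S100a8 was number 4 from S100a9 and S100a9 number 23 from S100a8, at a distance of 1.03, and Lcn2 lay at 2.57 and 3.57 from them. Distance counts the size of a swing as well as its direction, so genes that share an order of libraries can lie far apart. Ranked over the 6 libraries by 1 minus Pearson correlation, which leaves out the size of a swing, the nearer S100 gene was number 1899 from Lcn2.

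The feature nearest to S100a9 was ENSRNOG00000037341 (distance 0.47), with 1, 0 and 2 reads in the vehicle replicates and 2015, 576 and 43 reads in the afatinib replicates. The feature nearest to S100a8 was ENSRNOG00000060413 (distance 0.51), with 3, 0 and 0 reads in vehicle and 1063, 252 and 12 reads in afatinib. Neither passed in edgeR (adjusted p of 0.189 and 0.191), and the tables do not pair them with gene names. Their vehicle counts were at or under the floor of 3 reads, so these distances depend on the prior count. The 3 features nearest to Lcn2 were at distances of 0.44 to 0.51, with fitted differences of 1.61 to 1.75 on the log2 scale (adjusted p of 0.268 to 0.287 in edgeR). Without afatinib replicate 3, ENSRNOG00000037341 was again the nearest to S100a9 (distance 0.50), while other features were nearest to S100a8 and to Lcn2.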

How the data were processed

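Back skin was frozen, its RNA was taken up in Trizol, and Illumina libraries were made from total RNA, per the labels' protocols. Each library has a deposited table of raw counts of reads per feature. HISAT2 2.0.5, featureCounts 1.5.0-p3 and DESeq2 1.16.1 are named in the submitters' processing notes. Build, annotation, strandedness and the handling of multi-mapping reads are not given in these sources, so reads shared with related or overlapping genes cannot be told apart. Libraries are named by group and the number in their titles, so that afatinib replicates 1, 2 and 3 are the columns headed 3, 4 and 5.

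The reference table (47357 genes, GRCr8) held an Ensembl identifier for 0 genes and matched 0 of the 33692 features. The 3 symbols were supplied with the choice of genes. The 18 gene and marker lists written for this work could not be matched and are not described. No 2 libraries held the same reads (chi-square per degree of freedom at least 28.2).

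Features were filtered with filterByExpr and tested in edgeR 4.0.16 (R 4.3.3) by a robust quasi-likelihood fit with TMM scaling (factors 0.908 to 1.11) and group as the only term. Printed CPM use total counts. Benjamini-Hochberg adjustment ran over all features. Alternatives were DESeq2 1.42.0, limma 3.58.1 with voom, other scalings and filters, the replicate number as a block, and each library left out in turn. The procedure was also run on simulated data in which each change was equal in all afatinib libraries. That run cannot speak to a group with a library apart from the others, as here. The rule for named genes took the 3 genes in full and the 3 features nearest to each in pattern, with at most 2 identifiers printed. The genes, lists and tests were chosen with earlier results of these data known.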

Additional observations from a re-analysis of the deposited data

How the results depend on the processing

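All 3 genes kept a higher fitted level after afatinib under every alternative run in edgeR, limma voom and DESeq2. Within edgeR, no call changed with upper quartile or RLE scaling, without the filter, with a filter at 5 CPM in 3 samples, in a non-robust fit or, added after seeing the data, with libraries thinned to equal totals. With single libraries left out, edgeR called between 0 and 1627 features, with S100a8 between 5.60 and 7.26, S100a9 between 7.73 and 9.40 and Lcn2 between 0.04 and 2.50 on the log2 scale, the upper ends being without afatinib replicate 3. The count was 1 without vehicle replicate 1 and 51 without vehicle replicate 2. DESeq2 called 1032 features, with S100a8 at 6.71 and S100a9 at 8.85. Added after seeing the data, DESeq2 without its filters on outlying counts and low means called 811 (6.71 and 8.85), and it called 399, 490 and 744 without vehicle replicates 1, 2 and 3 and 336, 270 and 4085 without afatinib replicates 1, 2 and 3. In the same order of omissions, DESeq2 put S100a8 at 6.79, 6.52, 6.83, 5.62, 6.79 and 7.28 and S100a9 at 8.95, 8.77, 8.82, 7.75, 8.93 and 9.41, all called. Lcn2 ran from 0.05 to 2.52 and was called only without afatinib replicate 3. Limma voom without afatinib replicate 3, also added after seeing the data, called 1376 features, with S100a9 at 9.27 and S100a8 at 7.16. Why the tools differed was not tested.

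The deviations of same-numbered libraries from their group means had correlations of 0.20, -0.21 and -0.39 for replicates 1, 2 and 3. With 3 libraries per group, and no differently numbered libraries compared, these values cannot decide whether the numbers mark pairs. The titles state no pairing, so the numbers were not taken as pairs. With the replicate block edgeR called 0 features, with S100a8 at 5.90, S100a9 at 7.86 and Lcn2 at 1.01, none past the threshold, and DESeq2 called 372, with S100a8 at 5.93 and S100a9 at 7.91. The difference in the S100a9 to S100a8 ratio ranged from 1.87 to 2.15 with a library left out. Of the 3 features nearest to S100a8, S100a9 and Lcn2, a prior count of 0.5 kept 0, 2 and 3, a minimum mean of 1 CPM kept 3, 3 and 1, and ranking by Pearson correlation kept 0 of each. With 38 to 183 reads of S100a8 and S100a9 in vehicle libraries, counting error limits their vehicle levels more than their afatinib levels.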
